A study of Mus musculus with 15 samples.

Results

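The distal calcium reabsorption genes are 9 mouse genes that carry calcium across the distal tubule wall or sense it. They were taken by symbol from the 54752 genes of the count table, and each matched 1 Ensembl gene. The entry channels are Trpv5 and Trpv6, the calcium binders are S100g (calbindin-D9k) and Calb1 (calbindin-D28k), the extruders are Slc8a1 (the sodium-calcium exchanger NCX1) and the plasma membrane pumps Atp2b1, Atp2b4 and Atp2b2, and the sensor is Casr, the calcium-sensing receptor. RNA was sequenced from tubules that had been freed enzymatically from slices of mouse kidney. The 4 groups were distal convoluted tubule of Cldn10a KO mice (n = 4), distal convoluted tubule of WT mice (n = 4), proximal convoluted tubule of Cldn10a KO mice (n = 3) and proximal convoluted tubule of WT mice (n = 4). Cldn10a KO mice lack claudin-10a, a tight junction protein of the proximal tubule. The sources used here state neither age, sex and strain nor how the allele was made. All mice had standard diet and water. For RNA, 10 proximal or about 20 distal tubules of a kidney were pooled. No label ties a library to an animal of its own, so the p-values reflect only how far these samples spread, which may be technical.

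In the late distal convoluted tubule and connecting tubule, calcium is reabsorbed through the cell rather than between cells. It enters from the urine side through TRPV5 and TRPV6, is buffered and ferried by the calbindins, and leaves on the blood side through NCX1 and the plasma membrane calcium pumps. Vitamin D and parathyroid hormone raise the genes of this route, and the calcium-sensing receptor reports the calcium level outside the cell. In the proximal tubule most calcium passes between the cells, through the tight junctions.

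The promoters of S100g and of both channels are shown, which are the members whose windows held a match to either motif below. Slc8a1, Atp2b4, Atp2b2 and Casr, whose windows held no match, were also far higher in distal than proximal libraries. The RefSeq promoter table (build GRCm38.p6) held 8 of the 9 genes, with 11 windows, each from 250 bases before to 50 bases after an annotated start; Calb1 was not among them. Capitals mark the TATA box core TATAAA and the nuclear receptor half-site AGGTCA, searched on both strands, so that TGACCT is the half-site on the other strand. The 3 windows, all on the - strand, lie at chrX:162964550-162964849 (S100g), chr6:41680674-41680973 (Trpv5) and chr6:41636356-41636655 (Trpv6).
S100g: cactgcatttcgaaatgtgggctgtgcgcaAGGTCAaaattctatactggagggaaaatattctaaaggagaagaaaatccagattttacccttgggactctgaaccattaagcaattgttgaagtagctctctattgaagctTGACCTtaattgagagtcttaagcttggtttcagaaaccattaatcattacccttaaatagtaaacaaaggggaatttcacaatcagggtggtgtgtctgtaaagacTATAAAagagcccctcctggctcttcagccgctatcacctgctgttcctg
Trpv5: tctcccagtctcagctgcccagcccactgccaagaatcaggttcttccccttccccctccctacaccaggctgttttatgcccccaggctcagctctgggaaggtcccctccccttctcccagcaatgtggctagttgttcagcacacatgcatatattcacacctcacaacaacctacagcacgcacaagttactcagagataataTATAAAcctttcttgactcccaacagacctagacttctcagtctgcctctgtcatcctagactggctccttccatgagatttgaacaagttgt
Trpv6: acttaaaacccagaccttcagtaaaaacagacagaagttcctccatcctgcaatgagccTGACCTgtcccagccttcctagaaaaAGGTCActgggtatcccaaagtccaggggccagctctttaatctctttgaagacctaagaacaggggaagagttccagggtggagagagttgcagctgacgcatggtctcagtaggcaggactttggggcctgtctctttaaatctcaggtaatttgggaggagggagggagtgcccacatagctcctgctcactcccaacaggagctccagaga
The S100g window held the half-site 220 bases before the annotated start and again, on the other strand, 107 bases before it, and its TATAAA began at the annotated start itself. The Trpv5 window held TATAAA 43 bases before the start and no half-site. The Trpv6 window held the half-site 165 bases before the start and, on the other strand, 191 bases before it. The windows of Slc8a1, Atp2b1, Atp2b4, Atp2b2 and Casr held neither motif. Of all 32851 promoters in the table, 13.6% held TATAAA and 16.3% held AGGTCA, so a match is a description of these letters and not a site.

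The libraries held 28729339 to 51764746 counts, of which mitochondrial ribosomal RNA took 57.8 to 71.6% and nuclear protein-coding genes 8.02 to 19.7%. Values below are in CPM, counts relative to library size, after scaling all 15 libraries together. Cldn10, the gene of claudin-10a, had 0 counts in each proximal KO library, against 541 to 1514 counts in the proximal WT libraries. In distal tubule it had 0 to 24 counts in KO and 3 to 22 counts in WT; counts are per gene and do not separate its isoforms. The labelled segments were checked with markers. Slc12a3, the sodium chloride cotransporter of the distal convoluted tubule, averaged 725 ± 93.4 CPM in distal KO and 669 ± 111 CPM in distal WT libraries, and 0.0186 ± 0.0323 CPM in proximal KO and 0.273 ± 0.0454 CPM in proximal WT libraries (SD, n = 4, 4, 3 and 4). The 6 proximal tubule markers summed to 6.88 to 13.1 CPM in distal KO and 9.39 to 13.04 CPM in distal WT libraries, against 3225 to 3508 CPM in proximal KO and 2873 to 3679 CPM in proximal WT libraries. Distal libraries also held markers of the neighbouring connecting tubule and of the thick ascending limb. The latter summed to 260 to 393 CPM in distal KO and 161 to 347 CPM in distal WT libraries. Distal values below, that of Casr included, are therefore those of the dissected stretch and not of 1 cell type.

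The first question was where each gene of the route is expressed. All 9 genes had counts in every distal library, and 8 of them were lower in every proximal than in every distal library of either genotype. The exception was Atp2b1, the pump found in most cells, whose levels overlapped between segments.

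Both entry channels were found in distal tubule alone, apart from 1 count. Trpv5, the main apical calcium channel of the mouse distal convoluted tubule, had 33.5, 37.4, 27.2 and 29.8 CPM in distal KO and 29.1, 36.2, 35.8 and 29.5 CPM in distal WT libraries. In proximal tubule it had no count in any of the 3 KO libraries and 1 count in 1 of the 4 WT libraries. The 2 segments did not overlap in either genotype. Trpv5 was at least 428-fold higher in distal than proximal KO tubule, with a floor of 3 counts per library, and the ratio in WT, which rests on that 1 count, was 6246 (95% counting interval 1121 to 246702). Trpv6, its close relative and the main intestinal calcium channel, was present at a far lower level, with 1.33, 1.397, 0.338 and 0.668 CPM in distal KO and 0.136, 1.28, 1.51 and 0.455 CPM in distal WT libraries. These rest on 14 to 51 counts per KO library and 4 to 59 per WT library, and no proximal library held a count, so its fold was at least 12.5 in KO and at least 13.4 in WT. Floors and counting intervals cover counting error only, as PCR copies of 1 molecule could not be recognised.

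The calcium binders were among the most abundant members and had a trace in proximal tubule. S100g, the small calbindin, had 887, 1106, 708 and 1012 CPM in distal KO and 1210, 1281, 1818 and 1163 CPM in distal WT libraries. In proximal tubule S100g had 1.57, 0.566 and 1.57 CPM in KO and 1.09, 1.16, 1.49 and 2.45 CPM in WT libraries. Its mean was 752-fold higher in distal than proximal KO tubule and 884-fold higher in WT. Calb1, the larger calbindin, had 807, 1125, 664 and 710 CPM in distal KO and 818, 917, 1302 and 954 CPM in distal WT libraries. Its 3 proximal KO libraries had 0, 0 and 0.177 CPM and its 4 proximal WT libraries 0.0628, 0.190, 0.382 and 0.298 CPM, 53 counts in all 7. No distal library of either gene came near a proximal one.

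Of the extruders, Slc8a1 was high in the distal segment alone, Atp2b4 and Atp2b2 were distal at lower levels, and Atp2b1 was not distal. Slc8a1, which moves calcium out in exchange for sodium, had 879, 1102, 828 and 897 CPM in distal KO and 711, 808, 1156 and 1138 CPM in distal WT libraries, against 0.0280 to 0.443 CPM in proximal KO and 0.293 to 0.783 CPM in proximal WT libraries. Atp2b4, the pump PMCA4, had 27.0, 29.3, 23.0 and 29.4 CPM in distal KO and 20.0, 27.8, 34.2 and 37.0 CPM in distal WT libraries, with 26 counts over the 3 proximal KO and 21 counts over the 4 proximal WT libraries. Atp2b2, the pump PMCA2 known from hair cells and neurons, had 1.303, 0.902, 1.71 and 0.783 CPM in distal KO and 1.905, 1.88, 1.15 and 2.99 CPM in distal WT libraries. It had no count in proximal KO tubule and 5 counts in proximal WT tubule. Atp2b1 had 12.7, 10.7, 16.0 and 14.0 CPM in distal KO and 9.69, 11.8, 12.7 and 15.2 CPM in distal WT libraries, and 12.6, 19.1 and 13.7 CPM in proximal KO and 12.1, 12.8, 15.0 and 12.1 CPM in proximal WT libraries. The segments overlapped for Atp2b1 in both genotypes.

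Casr, the receptor that lowers calcium reabsorption when calcium is high, had 23.9, 19.0, 17.6 and 16.4 CPM in distal KO and 16.1, 15.5, 15.7 and 24.9 CPM in distal WT libraries. It had no count in proximal KO tubule and 1 count in proximal WT tubule. Casr was at least 257-fold higher in distal than proximal KO tubule, and the WT ratio, on 1 count, was 3449 (95% counting interval 619 to 136225).

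**Figure D1:**
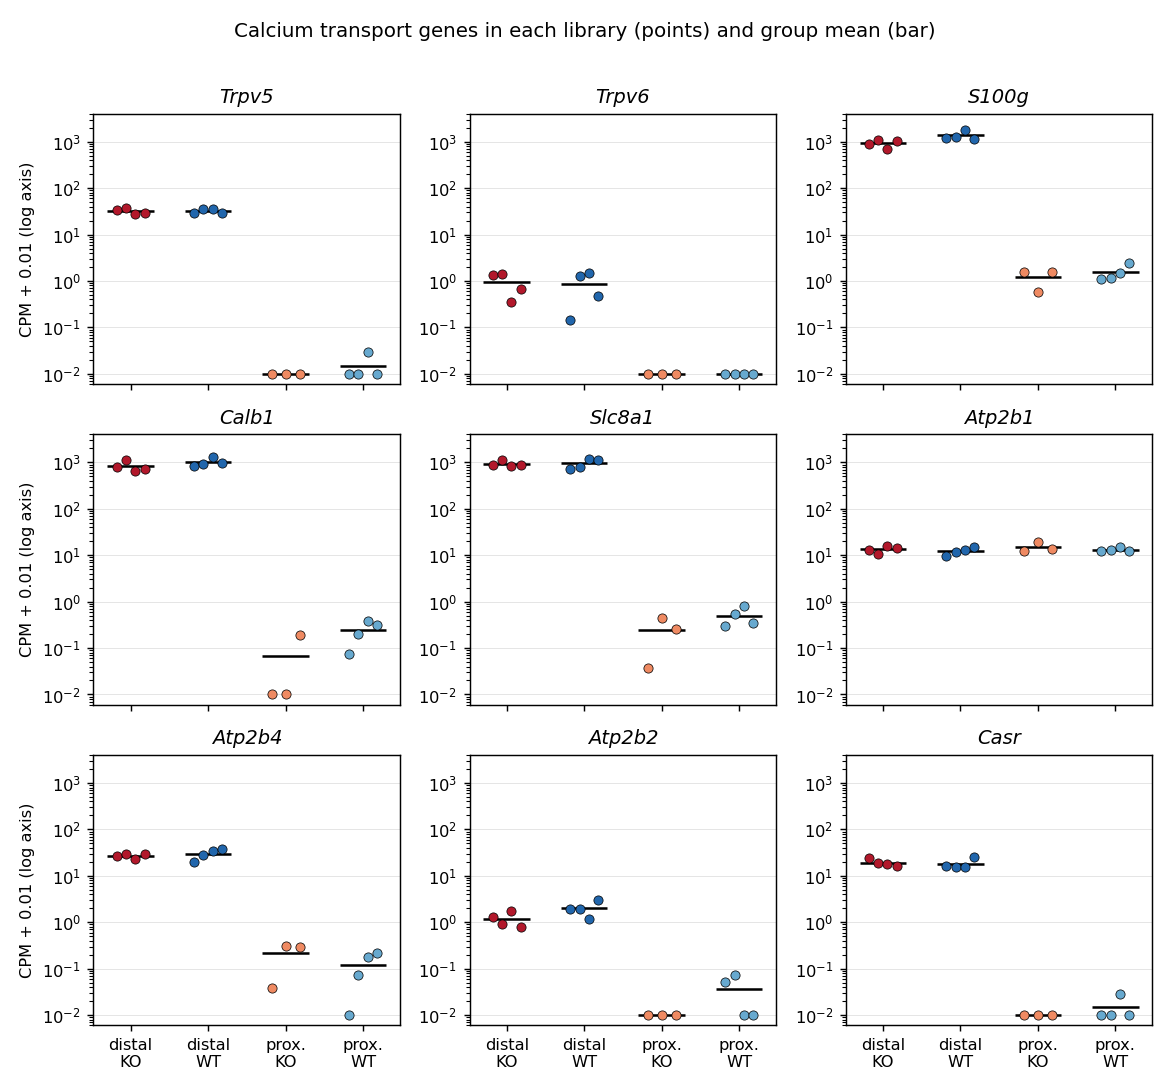
CPM of the 9 genes in each library (points, log axis, 0.01 added so that a library with no count is drawn at the bottom) with the group mean as a bar, for distal KO, distal WT, proximal KO and proximal WT tubule. Atp2b1 sits between 9.69 and 19.1 CPM in all 15 libraries, and the other 8 genes are far lower in the 7 proximal libraries.

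In the limma test across all genes, 7 of the 8 members that passed the filter on low counts were higher in distal than proximal WT tubule, where 24.4% of all 13672 genes were. In KO tubule 8 of 9 were higher, where 19.5% of all 13855 genes were. A gene that passed the filter only through the distal libraries had to differ, so the counts describe the members and are not a test of the list. Trpv6, at 0 in all proximal libraries, was under the filter in WT and passed it in KO through the distal libraries alone. The limma log2 change of S100g was 9.63 ± 0.38 in KO (SE, adjusted p = 6.73e-10) and 9.84 ± 0.28 in WT (adjusted p = 2.81e-13). That of Slc8a1 was 10.95 ± 0.46 in WT (adjusted p = 2.61e-11) and 12.31 ± 0.66 in KO. In KO, Slc8a1 had 1, 18 and 11 counts in the proximal libraries and passed the filter through the distal libraries alone. Its KO change is therefore a description and not a test. For Atp2b1 it was -0.21 ± 0.20 in KO (95% interval -0.65 to 0.23, limma adjusted p = 0.460) and -0.07 ± 0.15 in WT (95% interval -0.38 to 0.24, limma adjusted p = 0.709).

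Per kilobase of exon, which allows genes to be compared, the 8 distal libraries put the calbindins and the exchanger above the channels and pumps. S100g averaged 2392 ± 683 CPM per kb, Calb1 188 ± 44.2, Slc8a1 49.96 ± 8.99 and Trpv5 9.96 ± 1.20 CPM per kb (SD, n = 8 each). Casr followed with 3.95 ± 0.798, Atp2b4 with 2.32 ± 0.451, Atp2b1 with 0.843 ± 0.141, Trpv6 with 0.226 ± 0.139 and Atp2b2 with 0.125 ± 0.0565 CPM per kb. The ranges of neighbours in this order did not overlap, except those of Trpv6 and Atp2b2, of which Trpv6 was the higher in 5 of 8 libraries. S100g was 12.7-fold above Calb1 per kb, while the counts of the calbindins were close, since the S100g exons span 480 bp and those of Calb1 4846 bp. Lengths are those of all annotated exons merged, so a gene with long, little-used exons is placed too low. Among the plasma membrane pumps, Atp2b4 exceeded Atp2b1 in all 8 distal libraries and was 2.76-fold higher on average.

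**Figure D2:**
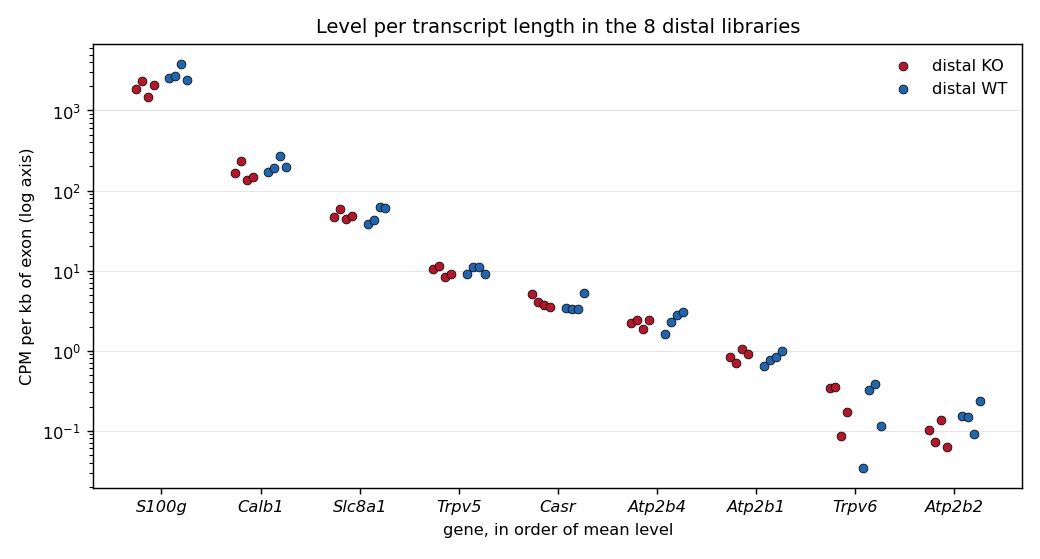
CPM per kb of exon (log axis) of the 9 genes in the 4 distal KO and the 4 distal WT libraries, in order of the mean over the 8. The genes step down from S100g at 1476 to 3788 CPM per kb to Atp2b2 at 0.0621 to 0.237 CPM per kb. The genotypes are drawn beside each other and overlap for each gene but S100g, where every KO library lies below every WT library.

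The second question was whether the loss of claudin-10a in the proximal tubule goes with a change of the calcium route downstream of it. In distal tubule 0 of 9 members passed an adjusted p of 0.05 in the limma test between 4 KO and 4 WT libraries, where 0% of all 13041 genes did. At an unadjusted p under 0.05 there were 2 members, S100g and Atp2b2, and 920 genes in all; without the filter on low counts limma called 4 genes, none of them a member. The median log2 change was -0.03 over the members and -0.01 over all genes. S100g alone of the 9 had groups that did not overlap, which held for 3.79% of all genes.

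S100g averaged 928 ± 172 CPM in distal KO and 1368 ± 304 CPM in distal WT libraries (SD, n = 4 each), and every KO library lay below every WT library, the closest being 1106 CPM in KO and 1163 CPM in WT. The log2 difference was -0.54 ± 0.15 (SE, 95% interval -0.86 to -0.23), which is 0.686-fold, with an unadjusted p of 0.00184. Over all genes the limma adjusted p was 0.665, so it did not pass the test. Leaving out each library in turn gave -0.63 to -0.39, with adjusted p from 0.307 to 0.907. The authors' deposited table gave a log2 change of -0.55 with p = 0.000568 and an adjusted p of 0.152 for S100g. Its adjusted p covered 7181 genes, of which 3 were under 0.05, none of them a member, so it is not on the scale of the limma value. That table is read as KO over WT, since 94.3% of the 13041 genes had the sign of the change computed from the counts. The S100g counts, 29373 to 70911 per distal library, leave little counting error, and Ctps2 on the opposite strand held 1.04% as many.

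Calb1 averaged 827 ± 208 CPM in distal KO and 998 ± 211 CPM in distal WT libraries, and the groups overlapped: KO replicate 6, at 1125 CPM, lay above 3 of the 4 WT libraries. Its log2 difference was -0.27 ± 0.16 (SE, 95% interval -0.60 to 0.06, limma adjusted p = 0.727), and ranged from -0.42 without KO replicate 6 to -0.13 without WT replicate 3. S100g was therefore compared with Calb1 and Slc8a1 within each library, which needs no scaling; these ratios were chosen after the values were seen. The ratio of S100g to Calb1 counts was 1.10, 0.983, 1.07 and 1.43 in distal KO and 1.48, 1.397, 1.397 and 1.22 in distal WT libraries, and the groups overlapped. The ratio of S100g to Slc8a1 counts was 1.01, 1.004, 0.856 and 1.13 in distal KO and 1.70, 1.58, 1.57 and 1.02 in distal WT libraries, with WT replicate 4 among the KO libraries. The differences in log2 ratio were -0.27 for S100g to Calb1 (exact two-sided permutation p = 0.114), -0.54 for S100g to Slc8a1 (p = 0.0571) and -0.26 for Calb1 to Slc8a1 (p = 0.0857) over 70 arrangements, where the smallest possible p is 0.0286. Adjusted over the 3 ratios each p was 0.114.

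None of the channels, the extruders or the sensor passed the test between genotypes in distal tubule. Trpv5 averaged 32.0 CPM in KO and 32.7 CPM in WT libraries, a log2 difference of -0.03 ± 0.14 (SE, 95% interval -0.32 to 0.26, limma adjusted p = 0.980). Slc8a1 averaged 926 ± 121 CPM in KO and 953 ± 227 CPM in WT libraries, a log2 difference of -0.01 ± 0.15 (95% interval -0.32 to 0.30, limma adjusted p = 0.994). The intervals of Atp2b1 (-0.23 to 0.46), Atp2b4 (-0.44 to 0.24) and Casr (-0.24 to 0.46) also held 0. Trpv6 had an interval of -0.96 to 1.47, which holds the size seen for S100g; its libraries varied by 55.3% in KO and 77.5% in WT (SD over mean). Atp2b2 averaged 1.18 ± 0.422 CPM in KO and 1.98 ± 0.757 CPM in WT libraries, with overlapping groups. Its log2 difference was -0.75 ± 0.35 (SE, unadjusted p = 0.0425, limma adjusted p = 0.690), on 31 to 71 counts per KO library and 45 to 138 per WT library. Casr of WT replicate 4 was 24.9 CPM, while the other WT libraries were at 15.5 to 16.1 CPM.

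**Figure D3:**
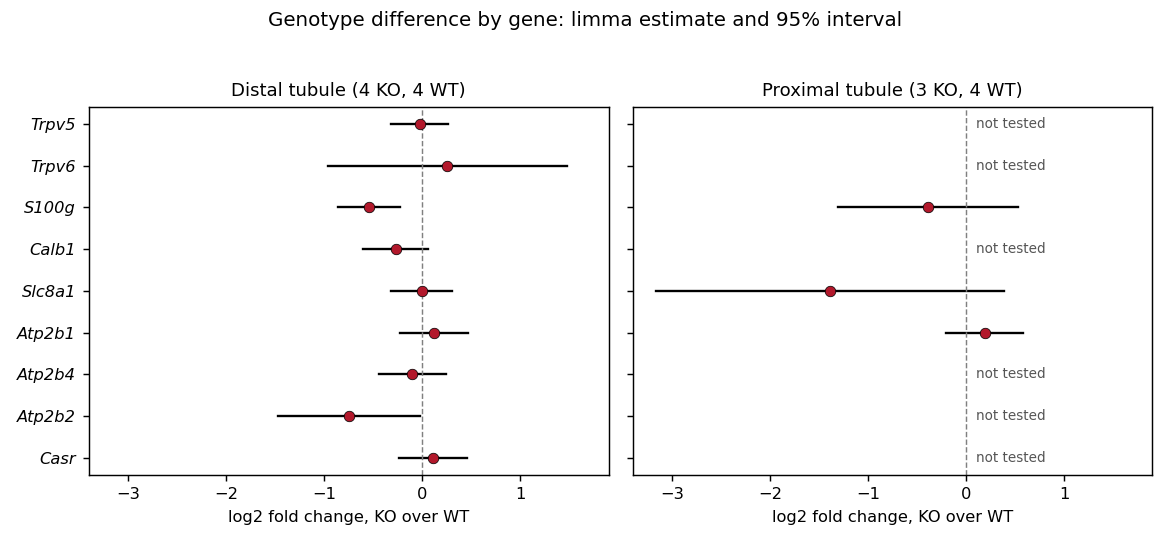
Log2 fold change of KO over WT with its 95% interval (limma) for each gene in distal tubule (left) and proximal tubule (right); genes under the filter on low counts are marked as not tested. In distal tubule the intervals of S100g and Atp2b2 lie below 0 before adjustment, and no gene passed after it.

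Markers of neighbouring segments and other cell types are given for the same distal libraries; none was called between genotypes, and of the sums below only that of the endothelium did not overlap. The 7 connecting tubule and principal cell markers summed to 2935, 3369, 2621 and 3258 CPM in distal KO and 3021, 3083, 4147 and 3628 CPM in distal WT libraries, most of it from Klk1, the tissue kallikrein. Of these 7 genes 6 passed the filter, 0 were called and 3 had an unadjusted p under 0.05, with a median log2 change of -0.44. The 3 were Aqp3 (log2 -0.99 ± 0.37), Hsd11b2 (-0.71 ± 0.30) and Aqp2 (-1.22 ± 0.55), each lower in KO. Aqp2, the water channel of principal cells, averaged 1.88 ± 1.47 CPM in KO and 4.25 ± 2.46 CPM in WT libraries, and Avpr2 had no count in any KO library and 0.0237 CPM in WT. The 6 thick ascending limb markers summed to 309, 288, 393 and 260 CPM in distal KO and 172, 190, 161 and 347 CPM in distal WT libraries, with 0 of 6 called and 3 at an unadjusted p under 0.05. These 3, Slc12a1 (log2 1.02 ± 0.35), Ptger3 (0.80 ± 0.27) and Umod (0.52 ± 0.18), were each higher in KO. The median over the 6 was 0.55, and Cldn10 alone was lower (-1.32 ± 1.14). The 6 distal convoluted tubule markers summed to 963 to 1289 CPM in KO and 960 to 1286 CPM in WT libraries. The 6 intercalated cell markers summed to 104 to 199 CPM in KO and 167 to 229 CPM in WT libraries, and 3 of the 6 (Aqp6, Slc26a4 and Slc4a1) had an unadjusted p under 0.05, each lower in KO. The 5 endothelial markers summed to 35.1 to 37.04 CPM in KO and 38.5 to 52.7 CPM in WT libraries, with 2 of 5 at an unadjusted p under 0.05. The sodium channel subunit genes Scnn1b and Scnn1g averaged 23.3 and 53.3 CPM in KO and 25.1 and 54.1 CPM in WT libraries. They changed least of the 6 connecting tubule markers tested (log2 -0.09 and -0.04). A marker score per library was also used, the mean log2 CPM over the genes of a list, which is not the summed CPM above. Each gene weighs equally in it, so genes near 0 shape it as much as abundant ones. Avpr2 is such a gene in the connecting tubule score, and Cldn10, the gene of claudin-10a, in the thick ascending limb score. The S100g difference was -0.34 with the connecting tubule score as a covariate (limma adjusted p = 0.990) and -0.45 with the thick ascending limb score (limma adjusted p = 0.7499). That of Calb1 was -0.05 with the connecting tubule score. In such pools, fewer cells of a type and less RNA per cell cannot be told apart.

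**Figure D4:**
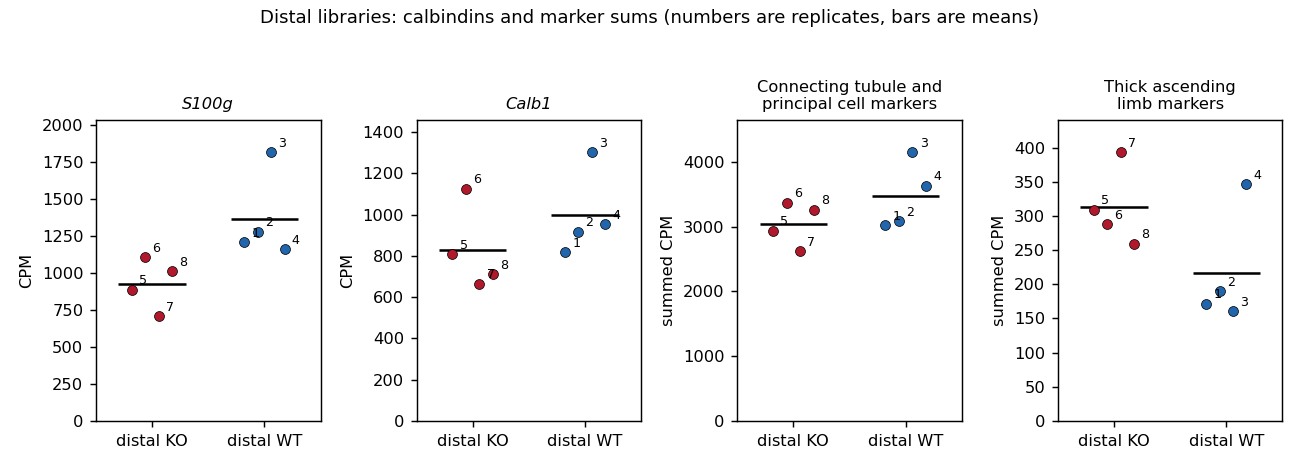
CPM of S100g and Calb1 and summed CPM of the connecting tubule and principal cell markers and of the thick ascending limb markers in the 4 distal KO and the 4 distal WT libraries, with replicate numbers beside the points and the mean as a bar. Of these 4 panels, S100g is the one in which the genotypes do not overlap, and WT replicate 3 is the highest WT library for S100g, Calb1 and the connecting tubule sum.

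In proximal tubule 3 of the 9 members, S100g, Slc8a1 and Atp2b1, passed the filter and 0 were called in the limma test between 3 KO and 4 WT libraries, where 0.182% of all 13190 genes were. S100g differed by -0.39 ± 0.43 (log2, SE, limma adjusted p = 0.870), Slc8a1 by -1.39 ± 0.82 (limma adjusted p = 0.757) and Atp2b1 by 0.19 ± 0.18 (limma adjusted p = 0.857). The S100g difference rested on KO replicate 5, at 0.566 CPM, without which it was 0.11. Leaving out each library gave -2.05 (without KO replicate 5) to -0.50 (without KO replicate 4, which held 1 count) for Slc8a1. For Calb1 and Atp2b4, which were under the filter, exact two-sided permutation tests of the difference in mean CPM gave p = 0.114 (0.0590 CPM in KO and 0.233 CPM in WT) and p = 0.343 (0.204 CPM in KO and 0.110 CPM in WT) over 35 arrangements, of which the smallest p is 0.0286. The other 4 genes had 0 counts in KO and 0 to 5 in WT. Of the distal markers in the same libraries, Klk1 had 0 to 0.111 CPM in proximal KO and 0.573 to 0.871 CPM in proximal WT libraries, and Slc12a3 0 to 0.0559 CPM in KO and 0.210 to 0.316 CPM in WT. The other markers of the distal convoluted tubule list were of 2 kinds there. Trpm6 and Pvalb were near 0: Trpm6 averaged 0.0353 CPM in proximal KO and 0.0425 CPM in proximal WT libraries, and Pvalb 0 CPM in KO and 0.0215 CPM in WT. Fxyd2, Klhl3 and Wnk4 were higher and overlapped between genotypes. Fxyd2 averaged 125 ± 43.96 CPM in proximal KO and 131 ± 14.7 CPM in proximal WT libraries. Klhl3 averaged 2.57 ± 0.363 CPM in KO and 2.89 ± 1.115 CPM in WT, and Wnk4 2.62 ± 0.788 CPM in KO and 2.35 ± 0.298 CPM in WT. The 7 connecting tubule and principal cell markers summed to 2.71 to 5.53 CPM in proximal KO and 3.88 to 7.36 CPM in proximal WT libraries, with Aqp2 and Avpr2 at 0 in both and most of the sum from Aqp3, which averaged 4.21 CPM in KO and 4.64 CPM in WT. Their part in the proximal values of the members was not tested.

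The difference between the distal and the proximal genotype effects was tested in 1 limma fit of all 15 libraries. None of the 9 members passed, where 0% of all 15374 genes did; 850 genes had an unadjusted p under 0.05. For S100g the distal effect minus the proximal effect was -0.18 ± 0.50 (log2, SE, 95% interval -1.21 to 0.85, limma adjusted p = 0.994). For Slc8a1 it was 1.39 ± 0.89 (limma adjusted p = 0.961) and for Atp2b1 -0.09 ± 0.25 (limma adjusted p = 0.994).

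Genes that control the route were listed beside it. In distal tubule 0 of the 6 tested genes of calcium hormone control differed between genotypes, with a median log2 change of 0.13. Vdr, the vitamin D receptor, averaged 77.1 ± 6.69 CPM in distal KO and 69.5 ± 19.3 CPM in distal WT libraries (log2 0.20 ± 0.16, limma adjusted p = 0.820). Pth1r, the parathyroid hormone receptor, averaged 17.9 ± 5.62 CPM in KO and 22.4 ± 3.77 CPM in WT libraries (log2 -0.37 ± 0.19, limma adjusted p = 0.690). Esr1, an estrogen receptor, averaged 1.48 ± 0.488 CPM in KO and 0.899 ± 0.268 CPM in WT libraries (log2 0.69 ± 0.35, limma adjusted p = 0.690). In proximal tubule 0 of 8 were called, and 3 had an unadjusted p under 0.05, as had 970 of all 13190 genes. These were Esr1 (log2 3.14 ± 1.11, limma adjusted p = 0.516), Rxra (-0.52 ± 0.21, limma adjusted p = 0.597) and Vdr (0.43 ± 0.17, limma adjusted p = 0.597). Esr1 rested on 18 to 69 counts per KO library and 0 to 34 per WT library. Cyp27b1, the enzyme that makes active vitamin D, was at 1.03 ± 0.293 CPM in KO and 2.27 ± 1.48 CPM in WT libraries. Cyp24a1, the enzyme that breaks it down, was at 36.1 ± 13.6 CPM in KO and 29.7 ± 14.2 CPM in WT libraries.

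In WT 4 of the 8 were higher in distal tubule and 4 were lower, by limma, where 48.5% of all genes were called in either direction. Kl (Klotho, a coreceptor for FGF23) averaged 808 ± 174 CPM in distal and 197 ± 9.46 CPM in proximal WT libraries (log2 2.01 ± 0.13, limma adjusted p = 3.08e-09). Pth1r averaged 22.4 CPM in distal and 52.1 CPM in proximal WT libraries (log2 -1.22 ± 0.12, limma adjusted p = 5.12e-07), and Rxra, the partner of the vitamin D receptor, was lower in distal tubule by a log2 change of -2.08 ± 0.17 (limma adjusted p = 3.36e-08). Cyp24a1 averaged 0.0108 CPM in distal and 29.7 CPM in proximal WT libraries.

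Of the 10 regulators and partners of the TRPV channels, 0 differed between genotypes in distal tubule, with a median log2 change of -0.13 and 2 at an unadjusted p under 0.05. Umod (uromodulin, which keeps TRPV5 at the cell surface and is made in the thick ascending limb) averaged 226 ± 30.02 CPM in distal KO and 166 ± 64.3 CPM in distal WT libraries (log2 0.52 ± 0.18, limma adjusted p = 0.667). Fkbp4, an immunophilin that binds TRPV5, differed by a log2 change of -0.37 ± 0.16 (limma adjusted p = 0.690). Bspry, which binds TRPV5, averaged 3.87 ± 1.14 CPM in KO and 4.95 ± 0.661 CPM in WT libraries (limma adjusted p = 0.690), and the kinase gene Sgk1 differed by -0.37 ± 0.19 (limma adjusted p = 0.690). In proximal tubule 0 of 9 were called and 2 had an unadjusted p under 0.05, as had 970 of all 13190 genes. Klk1, whose product stimulates TRPV5, was nearest (log2 -4.81 ± 1.04, limma adjusted p = 0.111), on 0 to 5 counts per KO library and 30 to 41 per WT library. Bspry followed (log2 -0.80 ± 0.22, limma adjusted p = 0.278), with 3.57 ± 0.488 CPM in KO and 6.22 ± 1.06 CPM in WT. It rested on 118 to 168 counts per KO library and 228 to 378 per WT library. Klk1 was called without the filter on low counts (limma adjusted p = 0.00487), with a stricter filter (0.0226) and in 1 fit of 15 libraries (0.0327). Its adjusted p reached 0.719 without KO replicate 4. Where a filter was used, Klk1 passed it only through libraries in which it was high. Its calls there are therefore no test of a genotype difference. In WT 5 of 10 were higher and 1 lower in distal than proximal tubule, beside the 48.5% of all genes called, with Klk1 at 3339 ± 515 CPM in distal and 0.776 ± 0.138 CPM in proximal libraries.

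Of the 14 other calcium pumps and exchangers 3 passed the filter in distal tubule and 0 differed between genotypes, with a median log2 change of 0.06. Atp2a2, the calcium pump of the endoplasmic reticulum, differed by 0.06 ± 0.14 (limma adjusted p = 0.953). It was lower in distal than proximal WT tubule (log2 -1.78 ± 0.13, limma adjusted p = 1.72e-08), and Atp2c1, the Golgi pump, was higher (log2 0.70 ± 0.14, limma adjusted p = 0.000498). Of the 11 calmodulin and EF-hand or chaperone calcium binders 8 passed and 0 differed between genotypes in distal tubule, with a median of -0.15. Calr (calreticulin), a calcium-binding chaperone, was the nearest (log2 -0.39 ± 0.19, limma adjusted p = 0.690). In WT 4 of these 8 were higher and 2 lower in distal than proximal tubule, again beside 48.5% of all genes; Pvalb (parvalbumin), a marker of the early distal convoluted tubule, averaged 26.6 ± 5.16 CPM in distal and 0.0215 ± 0.0188 CPM in proximal WT libraries, and Calm2, 1 of the calmodulin genes, was higher by 1.501 ± 0.12 (log2, limma adjusted p = 4.43e-08).

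The genes most like S100g, Calb1 and Trpv5 over the 15 libraries were taken from 2502 genes with a mean of at least 10 CPM, by the mean absolute difference of log2(CPM + 0.5) after each gene was centred on its own mean. For S100g these were Defb1 (0.29), Clu (0.36) and Slc16a7 (0.38). For Calb1 they were Slc8a1 (0.25), Slc12a3 (0.34) and Abca13 (0.38). For Trpv5 they were Klk1b21, Malrd1 and Rhcg (each 0.11). The measure is governed by the difference between segments, which all 9 named genes share: they averaged 31.0 to 940 CPM over the distal libraries and at most 0.380 CPM over the proximal libraries. Klk1b21 belongs to the kallikrein family of near-identical copies, as does Klk1, so the counts of both are uncertain.

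The genes lie, in GRCm38 with the GENCODE M21 annotation, on chromosome X at 162961992 to 162964599 (S100g, ENSMUSG00000040808), chromosome 4 at 15881264 to 15908064 (Calb1, ENSMUSG00000028222), chromosome 17 at 81373105 to 81738377 (Slc8a1, ENSMUSG00000054640) and chromosome 16 at 36493696 to 36562141 (Casr, ENSMUSG00000051980). Trpv5 (ENSMUSG00000036899, 41652173 to 41680769) and Trpv6 (ENSMUSG00000029868, 41620624 to 41636405) are neighbours on chromosome 6, both on the - strand. The pumps are on chromosome 10 at 98914406 to 99026143 (Atp2b1, ENSMUSG00000019943), chromosome 1 at 133699457 to 133801041 (Atp2b4, ENSMUSG00000026463) and chromosome 6 at 113743831 to 114042613 (Atp2b2, ENSMUSG00000030302). All are protein-coding, and counts cover the whole gene. Genes that overlap a member held at most 1.95% as many counts as that member.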

How the data were processed

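Per the labels' protocols, the RNeasy Plus Micro kit gave the RNA and Nextera XT the libraries. Per the submitters' processing notes, CASAVA 1.8, STAR 2.5, DESeq2 1.24.0 and GRCm38 were used; the counting program, annotation and strand setting were not given in the sources used here. The deposited table holds whole-number counts of 54752 genes, of which 54723 matched a GENCODE M21 symbol and 24945 had no count. Its layout could not be checked as counts, so its unit, and that of the 2 tables of log2 fold changes and p-values the authors deposited, is recorded as other. Those tables are read as KO over WT, from Cldn10 in the proximal table and from the sign of 94.3% of 13041 genes in the distal table.

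A gene was kept if about 10 counts, at the scale of its library, were reached by at least the number of libraries in the smaller group, with a total of 15. CPM were scaled by trimmed means of M values (30% and 5% trims) over 15 libraries. Tests used limma 3.58.1 with voom weights (prior count 0.5) in R 4.3.3, with Benjamini-Hochberg adjustment over all genes tested and an adjusted p under 0.05 as a call; single values used exact permutation tests (SciPy 1.17.1). The procedure was tested on simulated data. Libraries were grouped by the labels' genotype and tissue, and no library was left out. Replicates of a group differed (Pearson r of log2 values 0.909 to 0.945).

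All 9 members are named, up to 4 genes of each other list by smallest p in a comparison, and the 3 genes most like S100g, Calb1 and Trpv5; Cyp24a1, Cyp27b1, Pvalb, Klk1, Slc12a3 and the other markers given with values beyond that rule were added once their values were known. The members and lists were chosen with earlier results of these data known. Alternatives were another scaling, nuclear protein-coding library sizes, other filters, quality weights, 1 fit of 15 libraries, marker scores as covariates, a replicate block, an adjusted p under 0.1 and each library left out. The proximal genotype comparison was also run without WT replicate 6 and KO replicate 7 together. The sample numbers of these libraries come from a lower series than those of all others. What the numbers mark was not tested.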

Additional observations from a re-analysis of the deposited data

Results flagged for a closer look

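Of 65 groups of 4 libraries examined for 1 library far from the other 3, 6 were flagged, where chance flags about 1 in 20. The gap of the outlying library to its nearest neighbour, as a share of the group's whole range, is compared with a critical value of 0.829. In distal WT tubule, replicate 4 was the outlying library in each of 5: Casr CPM, with a share of 0.936 (24.9 CPM, the others 15.5 to 16.1 CPM), the log2 ratio of Calb1 to Slc8a1, with 0.933, and that of S100g to Slc8a1, with 0.846. The same library stood apart in the summed CPM of the distal convoluted tubule markers, with 0.887, and of the thick ascending limb markers, with 0.842 (347 CPM, the others 161 to 190 CPM). In distal KO tubule the summed CPM of the podocyte and mesangium markers, 8.59 to 11.4 CPM, was flagged with 0.832.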

How the results depend on the processing

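The counts of members called, 0 in both genotype comparisons, 8 between segments in KO and 0 for the interaction, were the same under every alternative run. Between segments in WT the count was 7, and 8 where Trpv6 entered the test: without a filter, in 1 fit of 15 libraries, and without distal WT replicate 1 or proximal WT replicate 1, 2, 3 or 6. Over the single values with a sign, 460 settings kept direction and side of the threshold and 23 reversed; each reversed value was of a gene that was not called. In distal tubule, leaving out each library in turn gave log2 changes of -0.097 to 0.043 for Trpv5, -0.23 to 0.66 for Trpv6, -0.13 to 0.10 for Slc8a1, -0.26 to 0.012 for Atp2b4 and -0.0047 to 0.28 for Casr. With the thick ascending limb score as a covariate, Trpv5 was 0.012 and Slc8a1 0.00093; with the connecting tubule score, Trpv5 was 0.038, Slc8a1 0.16 and Casr -0.17; with quality weights, Slc8a1 was 0.010. Leaving out 1 library gave -0.67 to 0.11 for S100g in proximal tubule, -0.66 to 0.10 for the S100g interaction, and for Atp2b1 between segments -0.30 to 0.0085 in KO and -0.18 to 0.022 in WT. The cause of these changes was not tested.

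No label says whether a number shared by a proximal and a distal group marks the same animal. Between libraries that share a number, the correlations of deviations from the group means were 0.0015, -0.011 and 0.027 in WT and -0.065 and -0.12 in KO. Libraries with unlike numbers were not compared, so these values do not decide whether the libraries are paired. With the number as a replicate block, 7 members in WT, 8 in KO and 0 in the interaction were called; over all genes it called 5838 in WT (6632 without it), 3421 in KO (5622 without it) and 1 in the interaction (0 without it). Over all genes, the proximal genotype comparison called 24, against 80 without a filter, 37 with quality weights, 119 in 1 fit of 15 libraries; it called 4, 15 and 10 without KO replicate 4, 5 and 7, and 2, 7 and 0 without WT replicate 1, 2 and 3. Of the other calcium pumps and exchangers, 2 were called between segments in KO without proximal KO replicate 5 (1 with it). In proximal tubule Trpv5, Trpv6, Atp2b2 and Casr had 0 counts in KO and 0 to 5 in WT, so no genotype difference was detectable there at this depth.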

Other observations

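The small trace of the route in proximal libraries varied in its proportions. Over the 8 distal libraries S100g had 361408 counts and Calb1 286874, a ratio of 1.26, while over the 7 proximal libraries S100g had 442 and Calb1 53, a pooled ratio of 8.34. The pooled ratio of S100g to Slc8a1 was 1.21 in distal and 3.54 in proximal libraries. In single proximal libraries the S100g to Slc8a1 ratio was 56 (on 1 Slc8a1 count), 1.28 and 6.46 in KO and 3.71, 2.2, 1.9 and 7.13 in WT. Its lowest was thus close to the distal ratio. The S100g to Calb1 ratio was above its highest distal value, 1.48, in each of the 5 proximal libraries with a Calb1 count. The nearest rested on 78 S100g and 20 Calb1 counts. These ratios were chosen after the values were seen and carry no test.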
